A study of Mus musculus with 9 samples.

Results

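Batf, Jun, Junb, Jund, Fos, Fosb, Fosl2 and Maf encode 8 basic leucine zipper (bZIP) transcription factors of activated T cells. They were taken by symbol from a count table of 45808 genes, and all 8 were among the 7858 genes that passed a filter on low counts. The RNA came from flow-sorted ICOS+ CD4 T cells of tumours that the mouse colon adenocarcinoma line MC38 had formed in C57BL/6J mice by day 12 after injection of its cells. The 9 libraries came from 1 mouse each: 3 mice given anti-CTLA-4, 3 given anti-PD-1 and 3 labelled Control. CTLA-4 and PD-1 are inhibitory receptors of T cells that these antibodies block, and ICOS is a costimulatory receptor of activated T cells. What the Control mice received, the clones and doses of the antibodies, how old the mice were and how many cells were sorted is not given in the labels used here.

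bZIP proteins bind DNA as dimers, held together by a coiled zipper of leucines. Jun proteins pair with themselves or with Fos proteins to form AP-1, which T cell receptor and costimulatory signals switch on through MAP kinases. Fos proteins need a Jun partner to bind DNA. BATF lacks the activation domain of the Fos proteins, pairs with Jun proteins and binds with IRF4 at composite sites in T cells. c-MAF, the product of Maf, drives interleukin-4, interleukin-10 and interleukin-21 in several CD4 T cell subsets.

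The 9 libraries held 25530333 to 41508589 gene counts, and a count of 3, used as the floor for an absent gene, equalled 0.0723 to 0.118 CPM (the count scaled to 1e+06 gene counts). T cell genes were abundant: 8 T cell markers summed to 3034 to 6710 CPM under anti-CTLA-4, 8200 to 8574 CPM under anti-PD-1 and 6897 to 7826 CPM in Control mice. Replicate 2 of the anti-CTLA-4 group differed from the other libraries, with 24.5 CPM of Cd4 and 0.59 CPM of Cd3e against 308 to 808 CPM and 347 to 838 CPM in the other 8 libraries. Other T cell markers went the opposite way: Cd3d at 696 CPM, Cd3g at 649 CPM and Trac, the T cell receptor alpha constant gene, at 632 CPM were the highest of the 9 libraries, which is 3 of the 8 markers. Its 10 macrophage and monocyte markers summed to 4573 CPM, against 186 to 638 CPM elsewhere, and 6 of the 10 were highest in it, Lyz2 at 1492 CPM among them. The other macrophage markers were low or absent there: C1qa at 0.0843 CPM, C1qb at 2.0 CPM, Adgre1 at 11.1 CPM and Fcgr1 at 0, against up to 110, 93.6, 169 and 100 CPM elsewhere. Fewer genes were detected in it, with 2662 at 5 CPM or more against 4209 to 6309 in the other libraries. The members' fitted changes of anti-CTLA-4 are therefore given with and without this library. In bulk libraries, fewer cells of a type and less RNA per cell cannot be told apart.

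The promoter sequences of the early-response members are shown because the genes that AP-1 acts on include its own subunits. Promoter windows from RefSeq on GRCm38.p6, 250 bases before to 50 bases after the start of each gene, were found for 7 of the 8 members, and Maf had no entry. The 120 bases before the start are printed 5′ to 3′ on the strand of the gene, with capitals for letters that match a searched motif. They lie at chr4:95052223-95052342 on the minus strand, chr8:84978749-84978868 on the minus strand, chr12:85473770-85473889 on the plus strand and chr7:19310046-19310165 on the minus strand.
Jun: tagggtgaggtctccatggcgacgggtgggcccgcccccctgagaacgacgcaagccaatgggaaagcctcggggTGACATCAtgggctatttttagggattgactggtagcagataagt
Junb: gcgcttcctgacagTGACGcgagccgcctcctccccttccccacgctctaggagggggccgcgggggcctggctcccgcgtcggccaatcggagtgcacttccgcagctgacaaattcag
Fos: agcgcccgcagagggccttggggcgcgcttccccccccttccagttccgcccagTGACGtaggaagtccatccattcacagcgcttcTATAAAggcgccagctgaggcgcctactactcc
Fosb: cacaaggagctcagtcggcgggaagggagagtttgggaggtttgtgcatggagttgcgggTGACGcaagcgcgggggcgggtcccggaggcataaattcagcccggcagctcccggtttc
The AP-1 site TGACTCA and the cAMP response element TGACGTCA were in none of the 7 windows on either strand, and in 5.2% and 1.79% of all 32851 promoter windows. TGACATCA, an AP-1 variant known from the Jun promoter, was in the Jun window and in 3.62% of all windows. TGACG, which is also part of TGACGTCA, was in the windows of Batf, Junb, Fos and Fosb, which are 4 of 7 members, and in 20.8% of all windows. TATAAA was in those of Junb and Fos and in 13.6% of all windows. Each match describes letters in the window, and binding was not measured.

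No member passed an adjusted p of 0.05 in any of the 3 comparisons of groups. With edgeR's quasi-likelihood test and Benjamini-Hochberg adjustment over all 7858 tested genes, 0 of 8 were called in anti-CTLA-4 against Control, where 0.369% of all tested genes were called. The count was also 0 of 8 in anti-PD-1 against Control, with 0.0764% of all genes called, and in anti-CTLA-4 against anti-PD-1, with 0.827% called. At an unadjusted p under 0.05 the same test counted 1 member (Jun), 1 member (Fosb) and 2 members (Jun and Fosb) in these comparisons, beside 11.3%, 6.01% and 14.1% of all genes. DESeq2 called 0, 0 and 1 member (Fosb), beside 12.8%, 12% and 14.5% of the genes to which it gave an adjusted p, which were 4 of the 8 members in each comparison. limma voom called none of the 8 in any comparison, beside 0%, 0.0255% and 0% of all genes. The common coefficient of variation of the fit was 184%, so the p-values measure differences against a wide spread between libraries. With 1 library per mouse, spread between mice and spread from library preparation cannot be told apart.

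**Figure D1:**
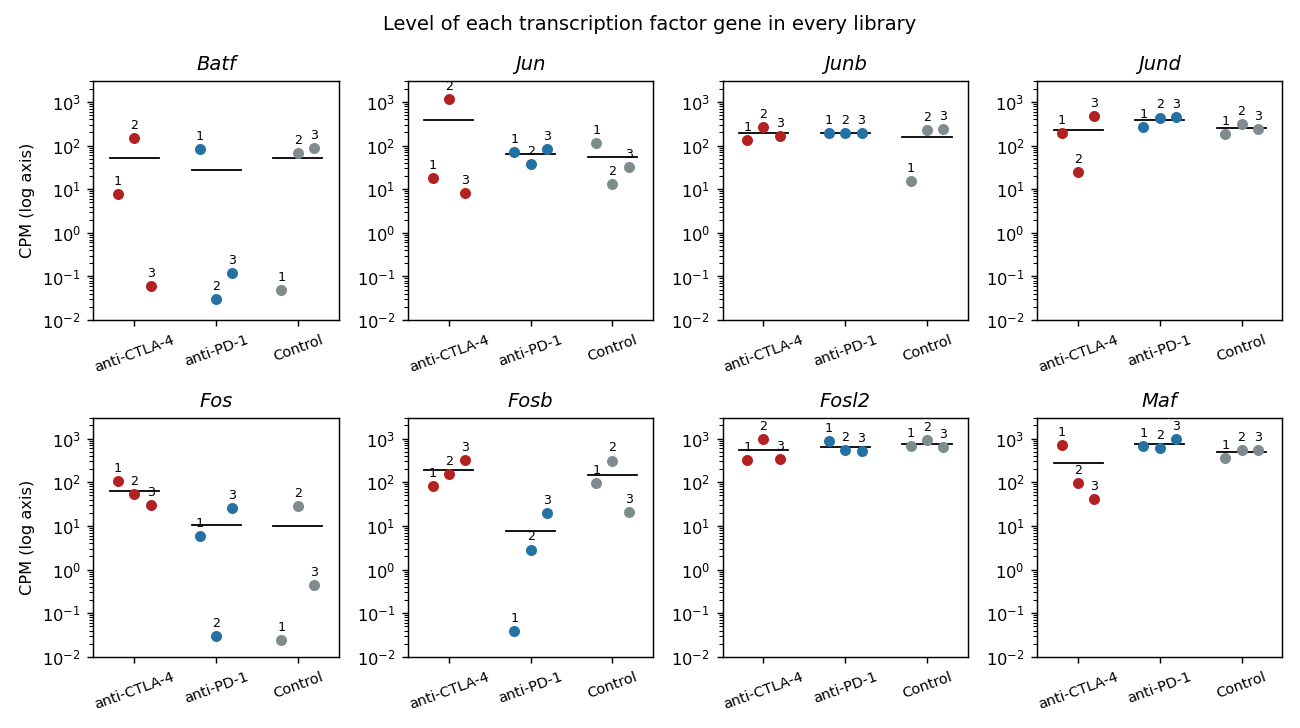
CPM of each of the 8 genes in every library, on a log axis, with anti-CTLA-4 left of anti-PD-1 and Control, points numbered by replicate and lines at the group means. Jun stood at 1140 CPM in anti-CTLA-4 replicate 2, against 8.26 to 116 CPM in the other 8 libraries, while Fosb was at or under 19.4 CPM in all 3 anti-PD-1 libraries.

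Jun, on chromosome 4 with a single exon (ENSMUSG00000052684, chr4:95049034-95052222, GRCm38, minus strand), encodes the strongest activator among the Jun proteins. It had 18.1, 1140 and 8.26 CPM in anti-CTLA-4 replicates 1, 2 and 3, 70.1, 38.5 and 82.4 CPM under anti-PD-1 and 116, 12.8 and 32.4 CPM in Control mice, in the same order of replicates. Replicate 2 held nearly all of the anti-CTLA-4 level, and the other anti-CTLA-4 libraries lay below every anti-PD-1 library. The means were 389 ± 651 CPM, 63.7 ± 22.6 CPM and 53.6 ± 54.6 CPM (SD, n = 3 each) for anti-CTLA-4, anti-PD-1 and Control, and the anti-CTLA-4 mean without replicate 2 was 13.2 CPM. The fitted log2 fold change of anti-CTLA-4 against Control was 4.41 (SE 1.28), with an adjusted p of 0.0922 in the edgeR quasi-likelihood test (Benjamini-Hochberg). Against anti-PD-1 it was 4.01 (SE 1.26), with an adjusted p of 0.104 by the same edgeR test. Fitted changes use TMM factors, 0.407 for anti-CTLA-4 replicate 2, and so differ from ratios of CPM means.

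The sign of the Jun difference turned on that library. Without anti-CTLA-4 replicate 2, the log2 fold changes were -1.87 against Control (edgeR adjusted p = 1) and -2.28 against anti-PD-1 (edgeR adjusted p = 0.931). Without replicate 1 they were 4.80 and 4.44 (edgeR adjusted p = 0.0268 and 0.0348), and without replicate 3 they were 4.81 and 4.44 (edgeR adjusted p = 0.0354 and 0.0434), so that Jun was called in those fits. Without replicate 1, 0.863% and 1.58% of all genes were called, without replicate 3 0.786% and 1.43%, and without replicate 2 0% and 0.0645%. The macrophage and monocyte marker sum was 380 to 4573 CPM in anti-CTLA-4, 199 to 638 CPM in anti-PD-1 and 186 to 526 CPM in Control libraries, with none of the 10 markers at 0 in all libraries. The 5 fibroblast markers likewise summed to 1597 CPM in replicate 2, against 31.4 to 376 CPM in the other libraries. Of the 5, Col1a1, Col1a2 and Col3a1 were highest in replicate 2, whereas Dcn was at 0.0281 CPM, lowest of the 9, and Pdgfra was at 9.59 CPM, below anti-PD-1 replicate 2 at 13.3 CPM. The part of these cells in the Jun level was not tested.

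**Figure D2:**
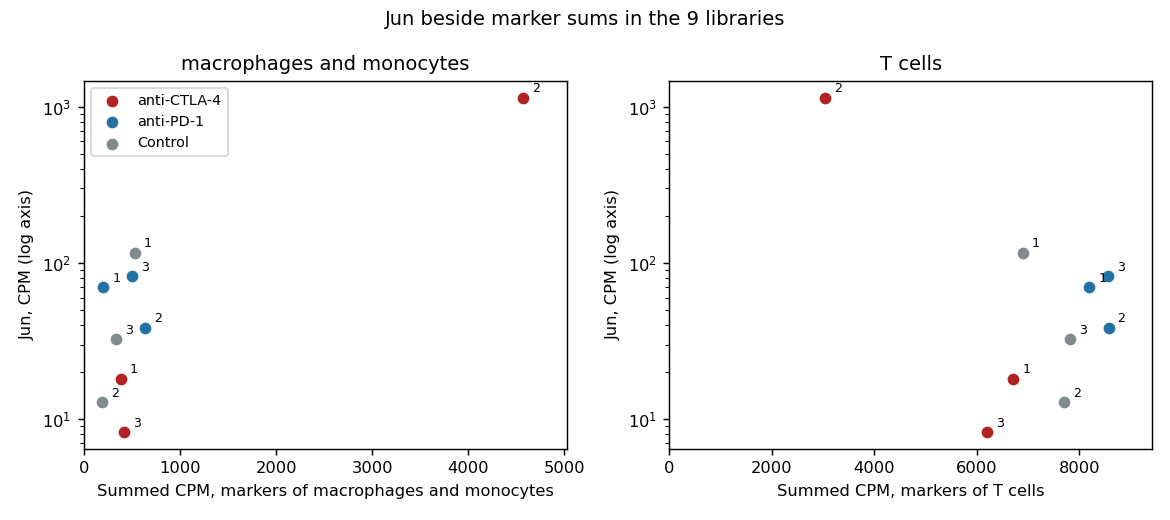
Jun in CPM (vertical, log axis) against summed macrophage and monocyte markers and against summed T cell markers in CPM (horizontal), each point 1 library numbered by replicate. Anti-CTLA-4 replicate 2 stood alone, with 4573 CPM of macrophage and monocyte markers and 3034 CPM of T cell markers.

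Junb, whose product is the Jun partner of BATF in several T helper subsets, varied little outside Control replicate 1. Its levels were 137, 269 and 165 CPM under anti-CTLA-4, 190, 192 and 190 CPM under anti-PD-1 and 15.3, 222 and 239 CPM in Control mice. That library was the low one, and the 3 groups overlapped. Among the anti-PD-1 libraries the coefficient of variation of its CPM was 0.6%, while the median gene had 106.6%. Of the 7858 tested genes, 0 had a lower one there. CPM leaves out the TMM factors of the fit, which were 1.16, 0.83 and 1.18 for anti-PD-1 replicates 1, 2 and 3. The close values therefore hold on the CPM scale only. Fitted log2 fold changes were 1.30 (SE 1.44) for anti-CTLA-4 against Control, 0.54 (SE 1.42) for anti-PD-1 against Control and 0.77 (SE 1.43) for anti-CTLA-4 against anti-PD-1. Without anti-CTLA-4 replicate 2 the changes of anti-CTLA-4 were 0.12 against Control and -0.39 against anti-PD-1. Junb lies on chromosome 8 (ENSMUSG00000052837, chr8:84974484-84978718, minus strand), where its exons overlap Prdx2 on the opposite strand, which had 159 to 8731 counts. Since the strand setting of the counting is not given, reads of these genes may not be fully separated.

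Jund, a single-exon gene whose product is present in resting lymphocytes and restrains their growth (ENSMUSG00000071076, chr8:70698949-70700616, plus strand), had 193, 24.4 and 478 CPM under anti-CTLA-4, 268, 438 and 459 CPM under anti-PD-1 and 187, 318 and 238 CPM in Control mice. Anti-CTLA-4 held both the lowest library, replicate 2, and the highest, replicate 3. Group means were 232 ± 229 CPM for anti-CTLA-4, 388 ± 104 CPM for anti-PD-1 and 248 ± 66.4 CPM for Control (SD, n = 3 each). The groups overlapped in all 3 comparisons. The fitted log2 fold change of anti-CTLA-4 was 0.18 (SE 1.26) against Control and -0.75 (SE 1.27) against anti-PD-1, and without replicate 2 it was 0.65 and -0.27.

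Fos and Fosb are immediate early genes, transcribed within minutes of stimulation in many cell types. Both were higher in every anti-CTLA-4 library than in any anti-PD-1 library. Jun and Junb, the other early-response members, overlapped between these groups. Fos (ENSMUSG00000021250, chr12:85473890-85477273, plus strand) had 109, 53.7 and 29.8 CPM under anti-CTLA-4, 5.88, 0.0302 and 25.7 CPM under anti-PD-1 and 0.0241, 28.7 and 0.447 CPM in Control mice. Every anti-CTLA-4 library was above every anti-PD-1 and every Control library, by a narrow margin over Control replicate 2. The values of 0.0302 and 0.0241 CPM are 1 read each, below the floor. Ranges higher without overlap were seen for 1 of 8 members, Fos, in anti-CTLA-4 against Control, beside 1.57% of all tested genes, and none was lower without overlap, beside 10.4%. The fitted log2 fold changes were 3.48 (SE 3.22) against Control and 3.26 (SE 3.19) against anti-PD-1, with adjusted p of 0.873 and 0.816 in the edgeR quasi-likelihood test (Benjamini-Hochberg). Leaving out single libraries moved the change against Control between 2.81 and 8.67, the highest without Control replicate 2, and that against anti-PD-1 between 2.58 and 5.01, the highest without anti-PD-1 replicate 3.

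Fosb (ENSMUSG00000003545, chr7:19302696-19310051, minus strand) had 82.4, 158 and 320 CPM under anti-CTLA-4, 0.0392, 2.87 and 19.4 CPM under anti-PD-1 and 96.8, 314 and 20.5 CPM in Control mice. The anti-PD-1 libraries were the 3 lowest of the 9, although their highest value lay just under the lowest Control value. Group means were 187 ± 121 CPM for anti-CTLA-4, 7.45 ± 10.5 CPM for anti-PD-1 and 144 ± 152 CPM for Control (SD, n = 3 each). In anti-CTLA-4 against anti-PD-1 the fitted log2 fold change was 5.26 (SE 2.16; unadjusted p = 0.0147, adjusted p = 0.326 in the edgeR quasi-likelihood test, Benjamini-Hochberg). DESeq2 put it at 7.32 with an adjusted p of 0.00343, and the adjusted p ranged between 0.00343 and 0.874 over the 18 alternative settings. In anti-PD-1 against Control it was -4.12 (SE 2.04; unadjusted p = 0.0435, adjusted p = 0.823 in the edgeR test).

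Both comparisons that involve anti-PD-1 share the anti-PD-1 libraries, so the Fosb differences in them are not separate observations. Fos and Fosb were 2 of 8 members higher without overlap in anti-CTLA-4 against anti-PD-1, beside 2.81% of all tested genes, and none was lower, beside 6.95%. In anti-PD-1 against Control, Fosb was the 1 member lower without overlap, beside 7.33% of all genes, and Maf was the 1 member higher, beside 3.45%. Without anti-CTLA-4 replicate 2, the log2 fold change against anti-PD-1 was 2.81 for Fos and 4.83 for Fosb, and that against Control was 3.0 and 0.71. Without that library 8.03% of all genes were higher without overlap against Control and 10.2% against anti-PD-1. Both stayed positive against Control and against anti-PD-1 in all 18 alternative settings.

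**Figure D3:**
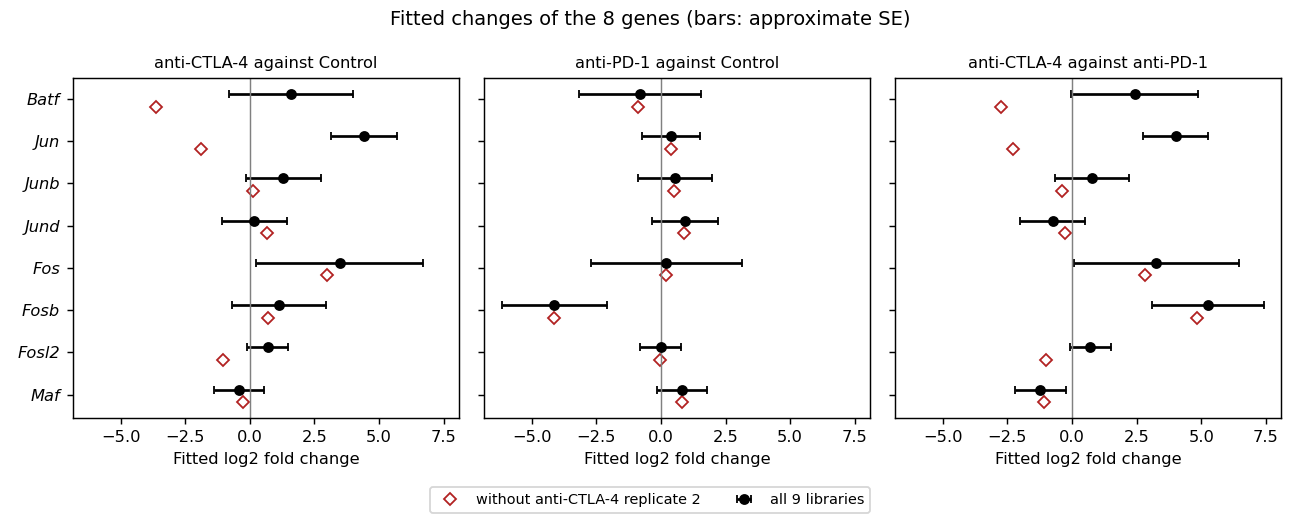
Fitted log2 fold changes of the 8 genes in the 3 comparisons (horizontal), as black points with bars of 1 SE for all 9 libraries and open diamonds without anti-CTLA-4 replicate 2. Jun, Batf and Fosl2 changed sign in both comparisons of anti-CTLA-4 without that library, whereas Fos and Fosb stayed on the same side.

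Fosl2, which encodes FRA-2, a Fos protein that persists longer after stimulation (ENSMUSG00000029135, chr5:32135801-32157842, plus strand), had 323, 964 and 334 CPM under anti-CTLA-4, 861, 556 and 512 CPM under anti-PD-1 and 681, 945 and 640 CPM in Control mice. Anti-CTLA-4 replicates 1 and 3 were the lowest of the 9, and replicate 2 was the highest. The fitted log2 fold change of anti-CTLA-4 against Control was 0.70 (SE 0.79), with an adjusted p of 0.990 in the edgeR quasi-likelihood test (Benjamini-Hochberg). Without anti-CTLA-4 replicate 2 it was -1.02 (edgeR adjusted p = 0.657), the mean of the remaining anti-CTLA-4 libraries was 329 CPM, and Fosl2 was lower without overlap against both other groups, as were Jun and Junb against anti-PD-1. In that subset 13.9% of all genes were lower without overlap against Control and 9.2% against anti-PD-1. The macrophage marker values given above for that library apply here too, and their part was not tested.

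Batf (ENSMUSG00000034266, chr12:85686669-85709087, plus strand) was present or nearly absent from library to library. It had 7.61, 151 and 0.0612 CPM under anti-CTLA-4, 82.5, 0.0302 and 0.117 CPM under anti-PD-1 and 0.0482, 68.6 and 87.0 CPM in Control mice. Each group held at least 1 library below 1 CPM and at least 1 above 50 CPM, and 4 of 9 libraries were below 1 CPM. Its fitted log2 fold changes were 1.61 (SE 2.40) for anti-CTLA-4 against Control, -0.81 (SE 2.36) for anti-PD-1 against Control and 2.42 (SE 2.47) for anti-CTLA-4 against anti-PD-1. Single libraries decided these values. Without anti-CTLA-4 replicate 2 the changes of anti-CTLA-4 were -3.63 against Control and -2.75 against anti-PD-1. Without anti-PD-1 replicate 1, the only anti-PD-1 library with Batf above 1 CPM, the change was -9.20 in anti-PD-1 against Control and 10.63 in anti-CTLA-4 against anti-PD-1. The Batf gene starts 209396 bases beyond the end of Fos on the same strand, and the low libraries of the neighbours differed in part: Control replicate 3 had 0.447 CPM of Fos and 87.0 CPM of Batf.

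Swings of this kind were common in these libraries. Batf, Fos and Fosb were below 1 CPM in a library and above 50 CPM in another, which is 37.5% of the members, and the same held for 5712 of 7858 tested genes, 72.7%. Fosl2, Maf and Jund were the steadiest in the Control group, with coefficients of variation of 21.9%, 22% and 26.8%, against a median of 89.1% over all tested genes.

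Maf (ENSMUSG00000055435, chr8:115682942-115707794, minus strand) had 700, 95.0 and 41.9 CPM under anti-CTLA-4, 658, 601 and 956 CPM under anti-PD-1 and 362, 548 and 547 CPM in Control mice. All 3 anti-PD-1 libraries were above all Control libraries, while anti-CTLA-4 replicates 2 and 3 were the lowest of the 9 and replicate 1 was high. The group means were 279 ± 366 CPM for anti-CTLA-4, 738 ± 190 CPM for anti-PD-1 and 486 ± 107 CPM for Control (SD, n = 3 each). For anti-PD-1 against Control the fitted log2 fold change was 0.82 (SE 0.97; adjusted p = 1 in the edgeR quasi-likelihood test, Benjamini-Hochberg). For anti-CTLA-4 it was -0.40 (SE 0.97) against Control and -1.23 (SE 0.98; edgeR adjusted p = 0.675) against anti-PD-1. Without anti-CTLA-4 replicate 2 these were -0.26 and -1.07, and the anti-CTLA-4 mean was 371 CPM. Without anti-CTLA-4 replicate 1, its high library, they were -1.67 and -2.47, and without replicate 3 they were 0.06 and -0.75.

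Scaled by exon length, the make-up of the 8 could be compared within a library. Jund led in CPM per kilobase in 8 of 9 libraries, at 116 and 286 in anti-CTLA-4 replicates 1 and 3, 161 to 275 in anti-PD-1 and 112 to 191 in Control. In anti-CTLA-4 replicate 2 Jun led instead, at 357 against 14.6 CPM per kilobase of Jund, with 47.3% of the summed level of the 8. Junb averaged 82.8 ± 30.3 CPM per kilobase in anti-CTLA-4, 82.9 ± 0.469 in anti-PD-1 and 69.0 ± 54.1 in Control, and Maf 33.9 ± 44.4, 89.6 ± 23.1 and 59.0 ± 13.0 in the same groups (SD, n = 3 each). The 8 together summed to 364 to 756 CPM per kilobase in anti-CTLA-4, 489 to 566 in anti-PD-1 and 285 to 567 in Control, so their sums overlapped between groups.

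Among the 3 Fos genes of the members (Fos, Fosb and Fosl2), Fosl2 made up most of the length-scaled level under anti-PD-1. Its share of the 3 Fos genes was 35.9%, 67.4% and 35.1% in the anti-CTLA-4 libraries, 97.3%, 99.2% and 79.0% in the anti-PD-1 libraries and 81.9%, 61.0% and 95.0% in the Control libraries. Fos was the leading Fos gene in anti-CTLA-4 replicate 1 and Fosb in anti-CTLA-4 replicate 3, and Fosl2 led in the other 7 libraries. In the Jun family, anti-CTLA-4 replicate 2 stood apart, with Jun at 73.1% and Jund at 3.0%. Elsewhere Jund took 55.6% to 79.4% of the Jun family, Junb 4.31% to 40.5% and Jun 0.718% to 23.4%. These shares are made of the levels given above and carry no test of their own.

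**Figure D4:**
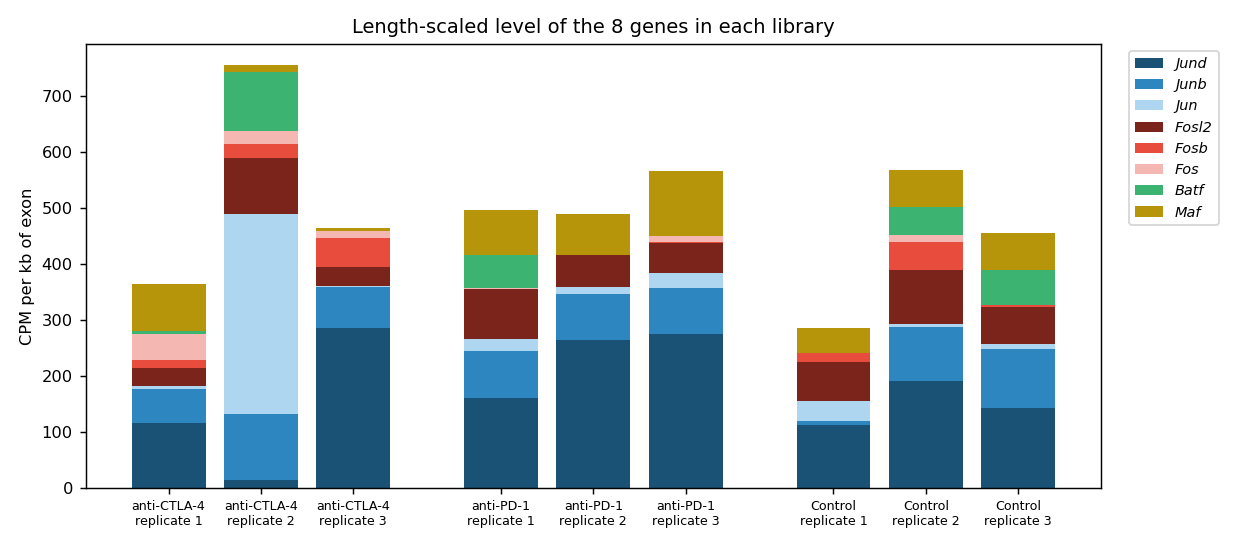
Length-scaled levels (CPM per kilobase of exon) of the 8 genes stacked for each library, anti-CTLA-4 first, then anti-PD-1 and Control. Jund was the largest piece in 8 of 9 libraries, and Jun in anti-CTLA-4 replicate 2.

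Other genes of the pathway were read in 5 lists, and no listed gene was called in any comparison by the edgeR quasi-likelihood test. Of the 20 other bZIP genes of the AP-1, ATF and MAF families, 11 were tested, and their median log2 fold change was -0.28 in anti-CTLA-4 against Control, 0.33 in anti-PD-1 against Control and -0.98 in anti-CTLA-4 against anti-PD-1, against 0.01, 0.07 and -0.05 over all tested genes. At an unadjusted p under 0.05, met by 11.3%, 6.01% and 14.1% of all tested genes, the edgeR test counted 0, 0 and 1 of them. The last was Nfe2l1, a stress-response bZIP gene, at 226 ± 217 CPM in anti-CTLA-4 (106 CPM without replicate 2), 30.4 ± 36.4 CPM in anti-PD-1 and 157 ± 97.1 CPM in Control (SD, n = 3 each), with a log2 fold change of 4.09 (SE 1.64; edgeR adjusted p = 0.326) in anti-CTLA-4 against anti-PD-1. Crem, a cAMP-responsive repressor and activator, averaged 255 ± 155 CPM in anti-CTLA-4, 556 ± 75.4 CPM in anti-PD-1 and 289 ± 99.7 CPM in Control (SD, n = 3 each). Atf7, a partner of Jun proteins, averaged 195 ± 141, 408 ± 48.4 and 292 ± 33.1 CPM in the same groups. Without replicate 2 the anti-CTLA-4 means were 341 CPM for Crem and 277 CPM for Atf7. For both genes the 3 anti-PD-1 libraries lay above all anti-CTLA-4 and all Control libraries. In anti-PD-1 against Control they were the 2 of 11 higher without overlap, beside 3.45% of all tested genes. Atf2 was the 1 lower there, beside 7.33%. In anti-CTLA-4 against anti-PD-1, 4 of the 11 were lower without overlap (also Atf4 and Mafg), beside 6.95% of all tested genes. DESeq2 called Bach2, a repressor at AP-1 sites, higher in anti-PD-1 than in Control, at 0, 27.0 and 17.7 CPM under anti-PD-1 and at most 0.129 CPM in Control mice. Bach2 was 1 of the 10 listed genes to which DESeq2 gave an adjusted p there, beside 12% called of all such genes.

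All 12 DNA-binding partners of AP-1 and BATF were tested, and 0 had an unadjusted p under 0.05 in any comparison with edgeR. The share over all tested genes was 11.3%, 6.01% and 14.1% in the same order of comparisons. DESeq2 and limma voom also called none of the 12. Irf4, the partner of BATF at composite sites, had 275, 1.49 and 265 CPM under anti-CTLA-4, 7.79, 172 and 112 CPM under anti-PD-1 and 29.0, 360 and 332 CPM in Control mice, and so overlapped between groups. Ets1 and Runx1, factors that T cells express throughout, averaged 681 ± 515 and 434 ± 254 CPM in anti-CTLA-4, 801 ± 198 and 459 ± 263 CPM in anti-PD-1, and 986 ± 499 and 574 ± 128 CPM in Control (SD, n = 3 each). Without replicate 2 the anti-CTLA-4 means were 975 CPM for Ets1 and 556 CPM for Runx1.

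Of 22 kinases, phosphatases and exchange factors that lead to AP-1, 21 were tested, with medians of 0.15, 0.47 and -0.72 in the same order of comparisons. The edgeR test counted 3, 1 and 2 of them at an unadjusted p under 0.05, beside 11.3%, 6.01% and 14.1% of all tested genes. DESeq2 called 4 in anti-CTLA-4 against Control, 1 in anti-PD-1 against Control and 2 in anti-CTLA-4 against anti-PD-1, of the 15 to which it gave an adjusted p, beside 12.8%, 12% and 14.5% of all such genes. Map2k1, which encodes the ERK kinase MEK1, was at 0.0656 CPM or less in the anti-CTLA-4 libraries, at 53.3, 45.0 and 22.7 CPM under anti-PD-1 and at 0.0723, 28.4 and 24.7 CPM in Control mice. Mapk8, which encodes the Jun kinase JNK1, was at 0 in all 3 anti-CTLA-4 libraries, at 96.4, 0.181 and 0.0292 CPM under anti-PD-1 and at 0, 33.2 and 21.4 CPM in Control mice. Both genes were thus below the floor of 3 counts in every anti-CTLA-4 library, and at or below it in Control replicate 1 as well. Mapk8 was also below it in anti-PD-1 replicate 3. Of the 4 called by DESeq2 in anti-CTLA-4 against Control, 3 were lower (Map2k1, Map2k4 and Mapk8) and Map2k2 was higher. Map2k2 had 145, 0.0281 and 8.14 CPM under anti-CTLA-4, 0, 113 and 48.7 CPM under anti-PD-1 and at most 0.0643 CPM in Control mice. It was also the 1 listed gene that DESeq2 called in anti-PD-1 against Control, where it was higher. In anti-CTLA-4 against Control 1 of the 21, Map2k7, was higher without overlap, beside 1.57% of all tested genes, and 3 were lower, beside 10.4%.

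The other immediate early genes were mostly lower under anti-PD-1 in fitted value, without any call. Of 16 listed, 13 were tested. In anti-CTLA-4 against anti-PD-1, 12 of the 13 had a positive log2 fold change, beside 3858 of all 7858 tested genes, with a median of 1.61. In anti-PD-1 against Control 11 of the 13 were negative, beside 3737 of all 7858 tested genes, with a median of -1.42. In anti-CTLA-4 against Control 8 were positive, beside 3943 of all 7858, with a median of 0.42. The comparisons that involve anti-PD-1 share its libraries, so their counts are not separate observations. Cd69, an early activation antigen, had 534, 457 and 165 CPM under anti-CTLA-4, 140, 62.8 and 126 CPM under anti-PD-1 and 184, 561 and 270 CPM in Control mice, so that every anti-PD-1 library lay below all others. Its log2 fold change in anti-CTLA-4 against anti-PD-1 was 2.54 (SE 1.23), with an adjusted p of 0.341 in the edgeR quasi-likelihood test (Benjamini-Hochberg), and DESeq2 called it.

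Nr4a3, a receptor gene induced by T cell receptor signals, had 729, 54.4 and 522 CPM under anti-CTLA-4, 62.7, 90.1 and 250.0 CPM under anti-PD-1 and 392, 794 and 387 CPM in Control mice. Nfkbia, the inhibitor of NF-kappa-B that is itself induced by it, had 221, 118 and 264 CPM in anti-CTLA-4, 36.9, 136 and 103 CPM in anti-PD-1 and 388, 234 and 522 CPM in Control libraries. For both genes all anti-PD-1 libraries lay below all Control libraries, while the anti-CTLA-4 range met the anti-PD-1 range through replicate 2. In anti-PD-1 against Control, 3 of the 13 were lower without overlap (Cd69, Nr4a3 and Nfkbia), beside 7.33% of all tested genes. None was higher without overlap there, beside 3.45%. Klf6 and Nr4a1, which had the highest mean CPM of the list, overlapped between groups in all 3 comparisons. In anti-CTLA-4 against anti-PD-1, 2 of the 13 were higher without overlap (Cd69 and Btg2), beside 2.81% of all tested genes. Without anti-CTLA-4 replicate 2 there were 6, beside 10.2% of all tested genes. The count of 12 positive genes was the same with RLE factors, where the median was 2.60 against 0.45 over all genes, and with library totals only, where it was 1.13 against -0.21. It was 11 with limma voom, 10 with the replicate number as a block, and 9 without anti-CTLA-4 replicate 1, the lowest of the alternatives.

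**Figure D5:**
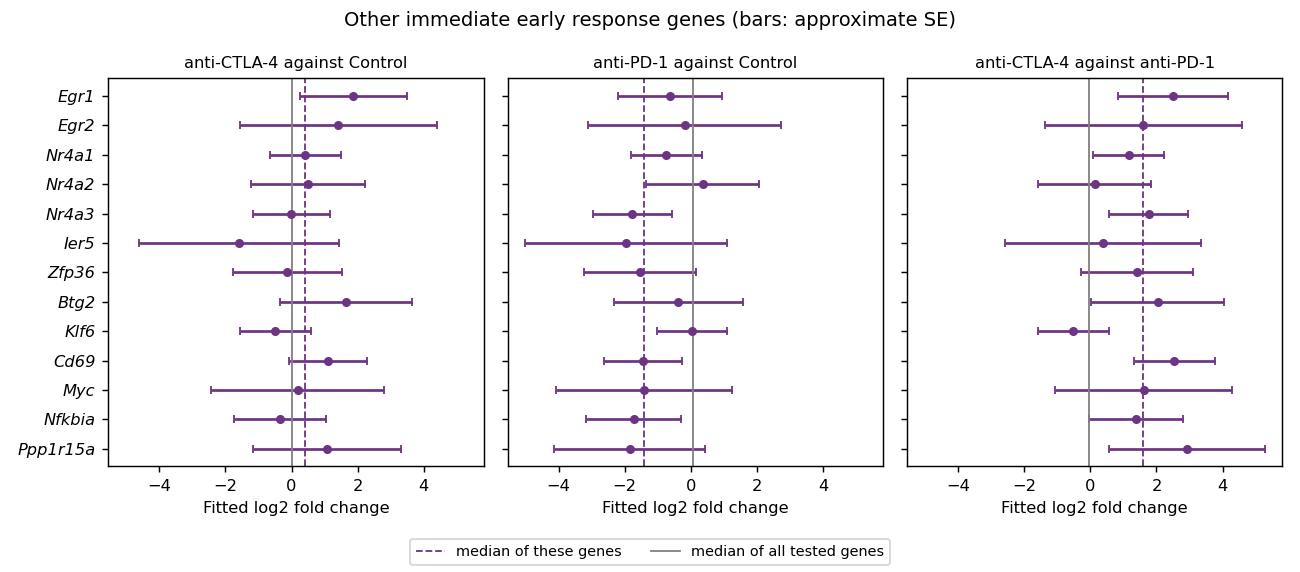
Fitted log2 fold changes of the 13 tested immediate early genes in the 3 comparisons (horizontal), as points with bars of 1 SE, a dashed line at their median and a grey line at the median of all tested genes. In anti-CTLA-4 against anti-PD-1 all but Klf6 lay above 0, and in anti-PD-1 against Control all but Nr4a2 and Klf6 lay below 0.

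Of 15 genes known to need BATF or MAF in mouse CD4 T cells, 12 were tested, with medians of -0.20, 0.42 and -0.76 in the same order of comparisons. With edgeR 0, 0 and 3 had an unadjusted p under 0.05, beside 11.3%, 6.01% and 14.1% of all tested genes. Under anti-CTLA-4, 4 were lower without overlap against Control and 3 against anti-PD-1, beside 10.4% and 6.95% of all tested genes. In anti-PD-1 against Control 2 were higher without overlap, beside 3.45%, and 2 were lower, beside 7.33%. Tigit, an inhibitory receptor, had 4296, 1173 and 2639 CPM under anti-CTLA-4, 6581, 6389 and 8247 CPM under anti-PD-1 and 4530, 5337 and 6352 CPM in Control mice. The 3 groups did not overlap, with anti-PD-1 highest and anti-CTLA-4 lowest. In anti-CTLA-4 against anti-PD-1 its log2 fold change was -1.14, with an adjusted p of 0.126 in the edgeR quasi-likelihood test (Benjamini-Hochberg), and it was called lower where library totals replaced TMM factors and where anti-CTLA-4 replicate 1 or replicate 2 was left out. limma voom called it higher in anti-PD-1 than in Control. Klrg1, a receptor of differentiated effector cells, averaged 274 ± 276 CPM in anti-CTLA-4, 1394 ± 402 CPM in anti-PD-1 and 843 ± 237 CPM in Control (SD, n = 3 each), and its log2 fold change in anti-CTLA-4 against anti-PD-1 was -2.50 (edgeR adjusted p = 0.127), called lower without anti-CTLA-4 replicate 1. DESeq2 called Il4, an interleukin gene, lower in both comparisons with Control, at 0.0306 CPM or less under either antibody and at 0.0241, 3.92 and 34.5 CPM in Control mice. The value of 0.0241 CPM, in Control replicate 1, is below the floor. In each of these comparisons Il4 was 1 of the 10 listed genes with a DESeq2 adjusted p, beside 12.8% and 12% called of all such genes. Icos, the gene of the sorting marker, averaged 1400 ± 785 CPM, 2764 ± 188 CPM and 2253 ± 539 CPM in the same groups. Without replicate 2 the anti-CTLA-4 means were 410.0 CPM for Klrg1 and 1846 CPM for Icos.

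Genes whose pattern over the 9 libraries was most like each member were found by the mean absolute difference in log2(CPM + 1), each gene centred on its own mean, among 4686 candidates. Lyz2, a lysozyme gene of macrophages, was closest to Jun, at 0.681 on the log2 scale against a median candidate at 2.66, and Scd2 was next, at 0.731. Jun and Lyz2 were both highest in anti-CTLA-4 replicate 2, and the part of that library in the match was not tested. The closest genes were Ldha at 0.318 and Edem1 at 0.308 for Fosl2, Chd3 at 0.36 for Junb, Ap3s1 at 0.388 and Cd247 at 0.46 for Maf, and mt-Nd6 at 0.317 and Atf7 at 0.323 for Jund. No candidate came as close to Batf, Fos or Fosb, for which the closest were Cfl2 at 0.802, Zkscan8 at 0.883 and Brwd3 at 0.864. Among the members, Junb and Fosl2 lay closest to each other, at 0.802, and Jund and Maf next, at 0.969.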

How the data were processed

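RNA was amplified with a single-cell kit and read as 76-nt pairs, per the labels' protocols. The deposited values are raw counts for each gene symbol, not normalized by the authors. The submitters' processing notes name TopHat2, HTSeq, DESeq2 and GRCm38 without versions or settings. HTSeq's summary rows entered neither library sizes nor tests. Genes had 32.9% to 40.7% of all counts, no feature 27.1% to 42.0%, not unique 24.3% to 31.1% and ambiguous 0.631% to 1.13%. Floors cover counting error only, since reads carry no molecular identifiers.

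edgeR 4.0.16 (R 4.3.3; quasi-likelihood, robust, TMM factors, filterByExpr with a minimum count of 10) was fitted over all 9 libraries with group as the only term, and Benjamini-Hochberg adjusted p was taken at 0.05 over 7858 genes. Alternatives included DESeq2 1.42.0 and limma 3.58.1 (voom with quality weights). An SE is the fold change over the square root of F. Levels per kilobase used GENCODE M21 exon lengths. The fits were also run on simulated data with a smaller spread than these libraries and no outlying library. That run does not show how the fits perform at the spread seen here.

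Members, lists and alternatives were chosen with earlier results of these data known. From each list the 5 genes with the highest mean CPM could be named, plus any called gene. Genes named beyond these (Irf4, Map2k1, Map2k2, Map2k4, Mapk8, Bach2, Btg2, Il4) were chosen after their values were seen. Sequences are from RefSeq (GRCm38.p6).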

Additional observations from a re-analysis of the deposited data

How the results depend on the processing

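Over 18 alternatives, 386 of 432 member fold changes kept their direction and side of the threshold, 41 reversed and 5 passed the threshold. Members called stayed at 0, except 1 with DESeq2 (Fosb, anti-CTLA-4 against anti-PD-1), and leaving out single libraries gave 0 to 1 in both comparisons of anti-CTLA-4 and 0 in anti-PD-1 against Control. Genes called over the whole table were more sensitive: 29, 6 and 65 in anti-CTLA-4 against Control, anti-PD-1 against Control and anti-CTLA-4 against anti-PD-1, against 800, 750 and 943 with DESeq2, 0, 0 and 0 with RLE factors, 0, 0 and 6 with library totals, 64, 2 and 98 without a filter, 18, 3 and 44 with a 5 CPM filter, 0, 2 and 0 with voom, 1, 0 and 31 with 2 groups only, and 1, 2 and 16 without anti-CTLA-4 replicate 2 and anti-PD-1 replicate 2. Leaving out single libraries gave 0 to 79, 0 to 5 and 6 to 145. The median of all genes shifted to 0.56, 0.26 and 0.45 with RLE factors and to -0.34, -0.12 and -0.21 with library totals.

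Replicate numbers carry no stated pairing of the mice. Each library's deviations from its group mean were correlated across genes with those of libraries of other groups. The correlations were -0.035 to 0.018 for same-numbered libraries and -0.023 to 0.03 for differently numbered ones. Same-numbered libraries were thus no more alike, though so few libraries per group cannot settle whether mice were paired. With the replicate number as a block 0 members were called in each comparison, and 10, 1 and 12 genes in all. The block reversed Batf in anti-CTLA-4 against Control (-2.22) and Fosl2 in anti-PD-1 against Control (0.02).

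Other reversed log2 fold changes were as follows, and the cause was not tested. In anti-CTLA-4 against Control they were Maf with DESeq2 (1.09) and RLE (1.25), Jund and Fosl2 with library totals (-0.10 and -0.47), Batf, Jun and Fosl2 with voom (-1.93, -0.51 and -0.80), and the same genes without both libraries named above (-3.63, -1.88 and -1.02). In anti-PD-1 against Control, Fosl2 was 0.21 with DESeq2 and 0.21 with RLE. In anti-CTLA-4 against anti-PD-1 they were Maf with DESeq2 (0.08) and RLE (0.24), Fosl2 with library totals (-0.24), Jun, Junb and Fosl2 with voom (-1.61, -0.14 and -0.70), and Batf, Jun, Junb, Jund and Fosl2 without both libraries (-3.34, -2.43, -0.20, 0.03 and -0.93).

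Leaving out single libraries gave, in anti-CTLA-4 against Control, Batf -3.63 to 2.05, Jun -1.87 to 5.52, Jund -0.85 to 0.65, Fosl2 -1.02 to 0.98, Maf -1.67 to 0.06, Junb 0.12 to 1.61, Fos 2.81 to 8.67 and Fosb 0.54 to 2.27. In anti-PD-1 against Control it gave Jun -0.11 to 1.66, Junb -0.02 to 0.96, Fos -1.61 to 5.49, Fosl2 -0.18 to 0.17, Batf -9.20 to -0.21, Fosb -6.07 to -2.92, Jund 0.65 to 1.16 and Maf 0.65 to 0.93. In anti-CTLA-4 against anti-PD-1 it gave Batf -2.75 to 10.63, Jun -2.28 to 4.44, Junb -0.39 to 1.03, Fosl2 -1.0 to 1.01, Jund -1.75 to -0.27, Fos 2.58 to 5.01, Fosb 4.61 to 7.13 and Maf -2.47 to -0.75. Fos and Fosb reversed in none of the 18 alternatives in either comparison of anti-CTLA-4. A group size of 3 mice and a common coefficient of variation of 184% limit what the tests can call.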
